A study of Arabidopsis thaliana with 5 samples.

Results

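The 42 genes described here are nuclear genes of the photosynthetic apparatus of Arabidopsis thaliana, out of 27444 nuclear protein-coding genes of the annotation. They were chosen from a fixed list by what they encode and not by a measured value, although earlier results of these data were known at that time. They comprise the 4 genes of the Rubisco small subunit (RBCS), 14 genes of the photosystem II antenna (LHCB), 6 of the photosystem I antenna (LHCA), 6 of extrinsic or small subunits of photosystem II (PSBO1, PSBO2, PSBP1, PSBQA, PSBQ2 and PSBR) and 12 of photosystem I subunits (PSAD1 to PSAO).

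All 5 libraries came from unopened flower buds in the Col-0 ecotype background. One dsRNA library was made from the rdr6 mutant (allele rdr6-11, which lacks the RNA-dependent RNA polymerase RDR6) after 1 round of ribosomal RNA depletion (rdr6 1X). A pair of dsRNA libraries came from wild-type Col-0, after 2 rounds (Col-0 2X) and after 1 round of depletion (Col-0 1X). For these 3 libraries the RNA, pooled from 3 biological replicates, was digested with RNase One, a ribonuclease that cuts single-stranded RNA, so that base-paired RNA remained. A small RNA library was made from rdr6 and another from wild-type Col-0. There was 1 library per condition, so each p-value below compares the reads of a pair of libraries and not the genotypes or the protocols. In whole buds, fewer green cells and less RNA per green cell cannot be told apart. Mapped reads ranged from 8193747 in rdr6 1X to 13773151 in Col-0 2X, and no library had a replicate.

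In the plant, light is captured by chlorophyll-binding LHCA and LHCB proteins and passed to the photosystems, which drive electrons from water to NADPH, while Rubisco fixes carbon dioxide in the Calvin cycle. The proteins of these families are encoded in the nucleus, made in the cytosol and imported into the chloroplast, and several families hold gene copies with nearly identical coding sequences. Base-paired RNA can arise when a transcript folds back on itself, which leaves reads of the sense strand, or when sense and antisense RNAs pair, which can leave reads of both strands. Small RNAs of 21, 22 and 24 nt are the usual products of plant Dicer-like enzymes acting on double-stranded precursors.

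The stretches that gave the most base-paired RNA in Col-0 1X are shown first, as the 30 transcript bases with the highest summed sense depth in the gene with the most reads of each group. Bases are read from the RefSeq genome (assembly TAIR10.1) on the coding strand. Capitals mark bases whose depth in Col-0 1X was at least 90% of the highest in that window.
RBCS3B, chr5:15377671-15377700 (-): actacgATGGACGgtactggacaatgtgga
LHCB1.3, chr1:10478716-10478745 (+): ctcaagaaCGGAAGATtggctatgttctct
LHCA4, chr3:17493982-17494011 (-): gttgagatcAGACGGTGGCAAGACAtcaag
PSBR, chr1:29736350-29736379 (+): atggacTTGAGGGACGGCGtcgacgcctcc
PSAO, chr1:2641226-2641255 (-): aggagagatttgaaCGTGGTAGGatttggg

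All 5 windows lay inside 1 coding exon. The RBCS3B window had a mean depth of 120.3 reads in rdr6 1X, 724 in Col-0 2X and 142 in Col-0 1X, which was 10.9, 19.6 and 10.2 times the mean of its whole transcript. The LHCB1.3 window had a mean depth of 80.7 in rdr6 1X, 480.5 in Col-0 2X and 308 in Col-0 1X. The PSBR window reached 39.7, 625 and 94.6 in these libraries. The windows were chosen for their depth in Col-0 1X, so their height there is a description, and the same stretches also stood above their transcripts in the other 2 libraries, by 3.88 times (LHCA4, Col-0 2X) to 19.6 times (RBCS3B, Col-0 2X). The LHCB1.3 window is shared base for base with LHCB1.1 and LHCB1.2 and at 29 of 30 bases with LHCB1.4, LHCB1.5 and LHCB3. The RBCS3B window is identical in RBCS1B and matches RBCS1A at 29 and RBCS2B at 28 of 30 bases. A read from such a stretch was counted at every gene it matched, because the deposited files keep every location and allow up to 6% mismatches.

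Photosynthesis genes were among the nuclear genes with the most sense dsRNA reads. Of the 42 genes, 38 in rdr6 1X, 40 in Col-0 2X and 40 in Col-0 1X fell in the top 10% of all 27444 genes by RPKM, that is, sense exonic reads per kb of transcript scaled by mapped reads. Their median RPKM was 14.7 in rdr6 1X, 40.1 in Col-0 2X and 21.9 in Col-0 1X, beside 0.45, 0.67 and 0.38 over all genes. Every one of the 42 had a sense read in each dsRNA library. With reads counted at every location, RBCS had the highest group median RPKM, 47.3 in rdr6 1X, 109.4 in Col-0 2X and 43.4 in Col-0 1X. Photosystem I subunits were lowest with 8.82, 16.6 and 9.92. The 5 LHCB1 genes and the RBCS genes share most of their reads, so neighbours in the order within those families are not separate measurements. The first place of RBCS depends on this way of counting too, since its 1770 sense counts in Col-0 1X stand for 666 separate reads.

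**Figure D1:**
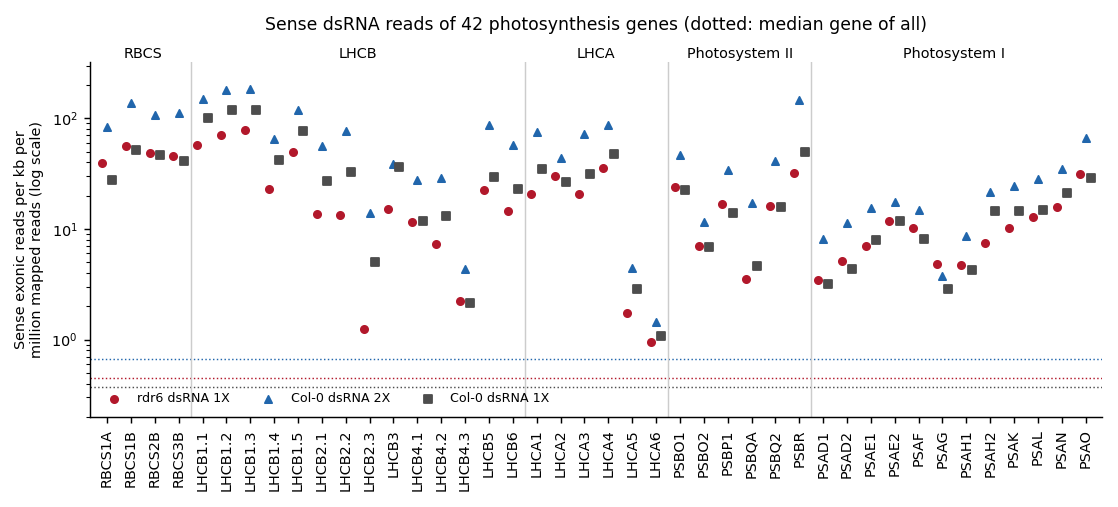
RPKM of sense exonic dsRNA reads (log axis) for each of the 42 genes in rdr6 1X, Col-0 2X and Col-0 1X, with dotted lines at the median of all nuclear genes in each library. Every gene sits above the dotted lines, from LHCA6 at 0.95 in rdr6 1X to LHCB1.3 at 183 in Col-0 2X.

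The RBCS genes encode the small subunit of Rubisco, and all 4 were read at similar depth. RBCS3B (AT5G38410) had 455 sense reads in rdr6 1X, 1878 in Col-0 2X and 510 in Col-0 1X, with 10 sense small RNA reads in rdr6 and 21 in Col-0. RBCS1B (AT5G38430) had 389, 1614 and 453 dsRNA reads in the same libraries, with 10 and 21 small RNA reads. For RBCS1A (AT1G67090) the dsRNA counts were 413, 1451 and 362 and the small RNA counts 7 in rdr6 and 29 in Col-0. RBCS1A was the 1 gene of the family with more raw reads in rdr6 1X than in Col-0 1X. RBCS2B (AT5G38420), the gene of the family with the fewest reads over the 3 dsRNA libraries, had 375, 1372 and 445, with 9 small RNA reads in rdr6 and 16 in Col-0. With each read taken once, 35.2% of the 671 RBCS sense reads in rdr6 1X, 21.9% of 2312 in Col-0 2X and 26.4% of 666 in Col-0 1X matched a single genome location.

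LHCB1 to LHCB3 encode the proteins of the major trimeric antenna of photosystem II, and LHCB1 gave the most dsRNA reads of the whole set. LHCB1.3 (AT1G29930) had 791 sense reads in rdr6 1X, 3099 in Col-0 2X and 1503 in Col-0 1X, with 22 sense small RNA reads in rdr6 and 29 in Col-0. LHCB1.2 (AT1G29910) had 713, 3036 and 1489 dsRNA reads, with 19 and 28 small RNA reads. LHCB1.1 (AT1G29920) had 622, 2720 and 1373 dsRNA reads, with 23 and 26 small RNA reads. LHCB1.5 (AT2G34420) held fewer dsRNA reads than these 3 genes but more small RNAs. Its counts were 426 in rdr6 1X, 1712 in Col-0 2X and 829 in Col-0 1X, with 117 small RNA reads in rdr6 and 89 in Col-0.

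The other LHCB genes ran over a wider range. LHCB2.2 (AT2G05070) had 125 sense reads in rdr6 1X, 1210 in Col-0 2X and 381 in Col-0 1X, with 5 small RNA reads in rdr6 and 8 in Col-0. LHCB2.3 (AT3G27690) had 12, 226 and 61, and no sense small RNA read in either library, where a count of 0 allows up to 3 reads. LHCB3 (AT5G54270) had 154, 668 and 462, with 11 small RNA reads in rdr6 and 7 in Col-0. Each of these 3 trimer genes had its fewest reads in rdr6 1X, the library with the fewest mapped reads. Among the minor antenna proteins, LHCB5 (AT4G10340, CP26) had 260, 1709 and 435 dsRNA reads, with 9 small RNA reads in rdr6 and 22 in Col-0. LHCB4.3 (AT2G40100), a form of CP29, had the fewest reads of the family over the 3 dsRNA libraries together, with 24, 81 and 29, although LHCB2.3 was lower in rdr6 1X. It had 2 small RNA reads in rdr6 and 3 in Col-0.

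LHCA1 to LHCA4 form the antenna belt of photosystem I. LHCA4 (AT3G47470) had 382 sense reads in rdr6 1X, 1560 in Col-0 2X and 640 in Col-0 1X, with 3 small RNA reads in rdr6 and 8 in Col-0. LHCA3 (AT1G61520) had 229, 1334 and 433, with 4 small RNA reads in each. LHCA2 had 348, 862 and 384 dsRNA reads but 929 sense small RNA reads in rdr6 and 674 in Col-0, more than the other 41 genes together in either library (502 and 598). LHCA6 (AT1G19150), a minor form that links photosystem I to the NDH complex, had the fewest reads of all 42 genes, with 9, 24 and 13 dsRNA reads and no sense small RNA read.

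In photosystem II, PSBR (AT1G79040), a small subunit on the lumenal side, had the most reads over the 3 dsRNA libraries together, with 213 sense reads in rdr6 1X, 1598 in Col-0 2X and 409 in Col-0 1X, and 3 small RNA reads in rdr6 and 8 in Col-0. PSBO1 (AT5G66570), which encodes the main manganese-stabilising protein of the water-oxidising complex, had 299, 968 and 351, with 2 and 7 small RNA reads. Its paralog PSBO2 (AT3G50820) had 76, 211 and 95, with 0 and 2 small RNA reads. PSBO1 was thus above PSBO2 in all 3 dsRNA libraries. PSBQA (AT4G21280), an extrinsic subunit of the same complex, had the fewest of the group over the 3 dsRNA libraries together, with 31, 240 and 50, although PSBO2 was lower in Col-0 2X. It had 1 small RNA read in rdr6 and 2 in Col-0. In photosystem I, PSAO (AT1G08380), a membrane subunit that takes part in state transitions, led with 210, 749 and 246 dsRNA reads and 2 and 3 small RNA reads. PSAG (AT1G55670), a membrane subunit beside the LHCA belt, had the fewest dsRNA reads with 31, 40 and 23. It had 1 small RNA read in rdr6 and 5 in Col-0. Both photosystem groups thus gave few small RNAs, 12 sense reads in rdr6 against 28 in Col-0 for photosystem II and 16 against 47 for photosystem I.

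The dsRNA reads of these genes came almost wholly from the sense strand. Summed over the 42 genes there were 8573 sense and 265 antisense reads in rdr6 1X, 37588 and 129 in Col-0 2X and 14404 and 164 in Col-0 1X. The sense share was 97.0% (95% Clopper-Pearson interval 96.6 to 97.3%) in rdr6 1X, 99.7% (99.6 to 99.7%) in Col-0 2X and 98.9% (98.7 to 99.0%) in Col-0 1X. These intervals, and those of ratios below, cover counting error only. Reads shared by copies are counted at each gene, so the sense counts stand for 5646 separate reads in rdr6 1X, 24411 in Col-0 2X and 8867 in Col-0 1X, and the intervals are too narrow. Over all nuclear protein-coding genes the summed sense share was 57.5%, 57.3% and 57.4%, a sum in which single genes weigh heavily, since 1 gene alone held up to 203246 antisense reads. The median gene with at least 20 reads was at 98.5%, 99.8% and 99.8% sense among the photosynthesis genes, beside 97.4%, 98.4% and 100% among all genes, so the typical photosynthesis gene lay close to the typical gene. More than 95% of reads were sense in 36 of 39 photosynthesis genes with at least 20 reads in rdr6 1X, in 42 of 42 in Col-0 2X and in 40 of 41 in Col-0 1X. The same held for 64.4%, 72.2% and 70.4% of all genes.

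Antisense dsRNA was concentrated in a few genes. No antisense read was found in 16 genes in rdr6 1X, 15 in Col-0 2X and 18 in Col-0 1X. LHCA2 had 99, 24 and 74 antisense reads in these libraries, and without it the sense share was 98.0%, 99.7% and 99.4%. RBCS1B had 12 antisense reads in rdr6 1X, 30 in Col-0 2X and 7 in Col-0 1X. Of the 30 in Col-0 2X, 2 lay in its coding sequence and none in its UTRs or intron. The rest lay in the span of the gene outside the transcript used here. In coding sequence RBCS1B had 12, 2 and 7, and the other RBCS genes likewise had more in the 1X libraries than in Col-0 2X. RBCS1A had 16, 4 and 12, RBCS2B had 14, 2 and 9, and RBCS3B had 16, 1 and 17. The LHCB1 genes reached 10 antisense reads only in rdr6 1X, where LHCB1.1 had 10, LHCB1.2 and LHCB1.3 had 12 each and LHCB1.5 had 14, beside 2, 0, 2 and 5 in Col-0 2X and 2, 2, 3 and 3 in Col-0 1X. Most of these RBCS and LHCB1 antisense reads had more than 1 location, so a read can be counted at several copies. In rdr6 1X, reads of a single location numbered 7 for RBCS1A, 2 for RBCS3B and 1 each for LHCB1.2 and LHCB1.3. RBCS1B, RBCS2B and LHCB1.1 had 0. Of the antisense reads of LHCB3, 7 of 7, 13 of 16 and 7 of 8 lay within a gene annotated on the opposite strand, which overlaps 186 bases of it. All 14, 5 and 3 antisense reads of LHCB1.5 did so too. That was given in advance, because an opposite-strand gene covers all 1045 bases of LHCB1.5. Of its 14 reads in rdr6 1X, 4 had a single location, and the origin of these reads was not tested. PSBO2 had 14, 5 and 4 antisense reads and PSBO1 had 7, 10 and 2.

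Within the genes, sense dsRNA reads lay mostly in coding sequence. The 42 genes together had 263 sense reads per kb of coding sequence in rdr6 1X, 1194 in Col-0 2X and 446 in Col-0 1X. The 5′ UTRs had 41.3, 112 and 58.3 reads per kb, the 3′ UTRs 55.9, 179 and 88.4, and the introns 3.82, 20.4 and 8.23. Coding sequence thus held 88.8%, 91.97% and 89.6% of the sense reads on 50.2% of the bases. Over all genes it held 60.8%, 63.3% and 55.0% on 51.9% of the bases, and there introns held more of the reads. These shares are sums, in which genes with many reads weigh heavily and shared reads count at each copy. With reads of 1 location the coding share of the 42 genes was lower, as given further below. By gene, coding sequence had more reads per kb than the introns in all 34 genes with introns, in each dsRNA library. It was above the 5′ UTR in 39, 40 and 40 of 42 genes and above the 3′ UTR in 41, 39 and 40 genes. PSAK and PSAL, both membrane subunits of photosystem I, had more reads per kb in the 5′ UTR than in coding sequence in all 3 libraries, with 204 against 73.8 for PSAK in rdr6 1X, 465 against 399 in Col-0 2X and 338 against 137 in Col-0 1X. LHCA6 was higher in its 3′ UTR in all 3 libraries on 9 to 24 reads.

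Along the spliced transcript, the reads of photosynthesis genes stayed away from both ends. With the transcript cut into 10 equal deciles, deciles 3 to 8 held a median of 88.6% of a gene's exonic sense reads in rdr6 1X (39 genes with at least 20 reads), 91.3% in Col-0 2X (42 genes) and 89.3% in Col-0 1X (41 genes), beside 73.8%, 75% and 74.3% over all genes with at least 20 reads. The last 2 deciles held on average 6.78%, 6.85% and 6.16% in photosynthesis genes and 15%, 14.1% and 15.5% in all genes. Since the copies within a family share reads, these averages count some reads more than once.

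**Figure D2:**
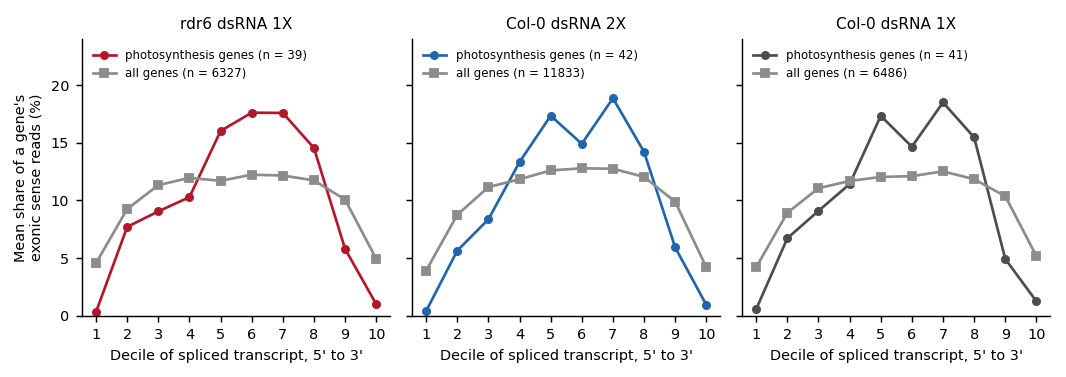
Mean share of a gene's exonic sense dsRNA reads (%) in each decile of the spliced transcript, from the 5′ to the 3′ end, for photosynthesis genes (coloured) and all nuclear genes with at least 20 reads (grey), in rdr6 1X, Col-0 2X and Col-0 1X. In all 3 libraries the photosynthesis genes lie above all genes from decile 5 to decile 8 and below them in deciles 1 to 3, 9 and 10.

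The reads were also set beside the fold that RNAfold predicts as the most stable for each transcript, which pairs a median of 60.5% of bases in the 42 genes. Mean sense depth was higher over bases predicted to be paired than over unpaired bases in 39 of 42 genes in rdr6 1X, 38 in Col-0 2X and 36 in Col-0 1X, with median log2 ratios of 0.38, 0.37 and 0.37. In 45 other genes of photosynthesis (Calvin cycle, chlorophyll synthesis and electron transport) the medians were 0.26, 0.22 and 0.19. The RBCS genes had the highest family medians, 0.93 in rdr6 1X, 1.17 in Col-0 2X and 0.99 in Col-0 1X. RBCS2B was an exception, at 0.25, 0.13 and 0.15, below the medians of the 42 genes. The RBCS copies share most of their reads, so their values are not separate. In the small RNA libraries the medians were as high, 0.44 in rdr6 (paired bases higher in 23 of 32 genes with values) and 0.42 in Col-0 (31 of 39). Most of these genes had few small RNA reads. The excess over paired bases was thus not particular to the dsRNA libraries. A predicted fold is a model, and no test was made of these values.

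The first comparison asks how dsRNA from these genes differed between rdr6 1X and Col-0 1X. In the rdr6 1X library, genes of the major photosystem II antenna had fewer sense reads. A gene was called where the ratio scaled by mapped reads was at least 2 and the exact one-sided Audic-Claverie p was under 0.001. All 42 genes had the 20 reads needed, and 3 of the 42 were called lower in rdr6 1X, where 2.11% of the 11342 genes tested were called lower. None was called higher, where 8.36% of all genes tested were. By the ratio alone the same 3 genes were lower (4.47% of all genes) and none higher (15.4% of all genes).

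The 3 genes called lower were all LHCB trimer genes. LHCB2.3 had 12 reads in rdr6 1X and 61 in Col-0 1X, a log2 ratio of -2.02 (95% interval -3.05 to -1.11). LHCB2.2 had 125 and 381, a log2 ratio of -1.28 (-1.58 to -0.98), and LHCB3 had 154 and 462, a log2 ratio of -1.26 (-1.53 to -0.99). LHCB2.1 had 157 reads in rdr6 1X and 389 in Col-0 1X, and its log2 ratio of -0.98 (-1.26 to -0.71) stayed just short of the ratio of 2. That value rests on shared reads. With reads of 1 location LHCB2.1 had 56 and 73, a log2 ratio of -0.05 (-0.58 to 0.47). Because reads shared by copies are counted at each, the families were also counted with each read taken once. On that count LHCB2 had 188 reads in rdr6 1X and 492 in Col-0 1X, a log2 ratio of -1.06 (-1.31 to -0.81). LHCB1 had 1116 and 2038, a log2 ratio of -0.54 (-0.65 to -0.43), and RBCS had 671 and 666, a log2 ratio of 0.34 (0.18 to 0.50).

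The rest of the set differed by group. The median log2 ratio was -0.77 over the 14 LHCB genes, -0.50 over the 6 LHCA genes, 0.03 over the 6 photosystem II genes, 0.05 over the 12 photosystem I genes and 0.14 over the 4 RBCS genes. With reads of 1 location the medians of photosystem II and photosystem I genes changed sign, to -0.06 and -0.12. The median over all 42 was -0.30, with a range of -2.02 (LHCB2.3) to 0.76 (PSAG), beside a median of 0.28 over all genes tested. All 14 LHCB genes and 39 of the 42 lay below that median of all genes. Relative to it, 10 genes were called lower, with 3.61% of all genes, and none higher, with 5.10% of all genes. These 10 were LHCB1.1, LHCB1.2, LHCB1.4, LHCB2.1, LHCB2.2, LHCB2.3, LHCB3, LHCB4.2, LHCA1 and PSAH2. With reads of 1 location only, 39 genes could be tested, LHCB1.1 was also called lower and RBCS1A was called higher. On that count the median of the 13 LHCB genes tested was -0.71, and 12 of them lay below the median of all genes (0.25). LHCB1.3 lay above it at 0.42, and LHCB1.5 was at -0.02.

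Read length differed between these libraries as well. The median length of the sense reads of the 42 genes was 28 nt in rdr6 1X and 38 nt in Col-0 1X, and the full 38 nt was reached by 31.7% and 50.5% of them. Over all genes these shares were 22.02% and 41.6%. The part of read length in the difference was not tested.

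Other gene groups give the setting. Of 14 Calvin cycle genes, none was called higher and 1 lower in rdr6 1X, with a median log2 ratio of -0.06. RCA, which encodes Rubisco activase, had 320 reads in rdr6 1X and 606 in Col-0 1X, and FBA2, a plastid aldolase, had 149 and 254, and neither was called. Of 18 chlorophyll synthesis genes, 2 were called higher and none lower (median 0.20), and of 13 genes of electron transport and ATP synthase 1 was called higher and none lower (median 0.27). Markers of the buds themselves were also read. None of 7 floral organ identity genes was called in either direction (median 0.04, summed sense reads 597 in rdr6 1X and 759 in Col-0 1X), and of 5 tapetum genes, which mark the nutritive layer of the anther, 4 could be tested and 1 was called lower (median -0.37, summed reads 104 and 229, 1 of the 5 at 0 reads in rdr6 1X). The part of differences in tissue make-up was not tested.

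**Figure D3:**
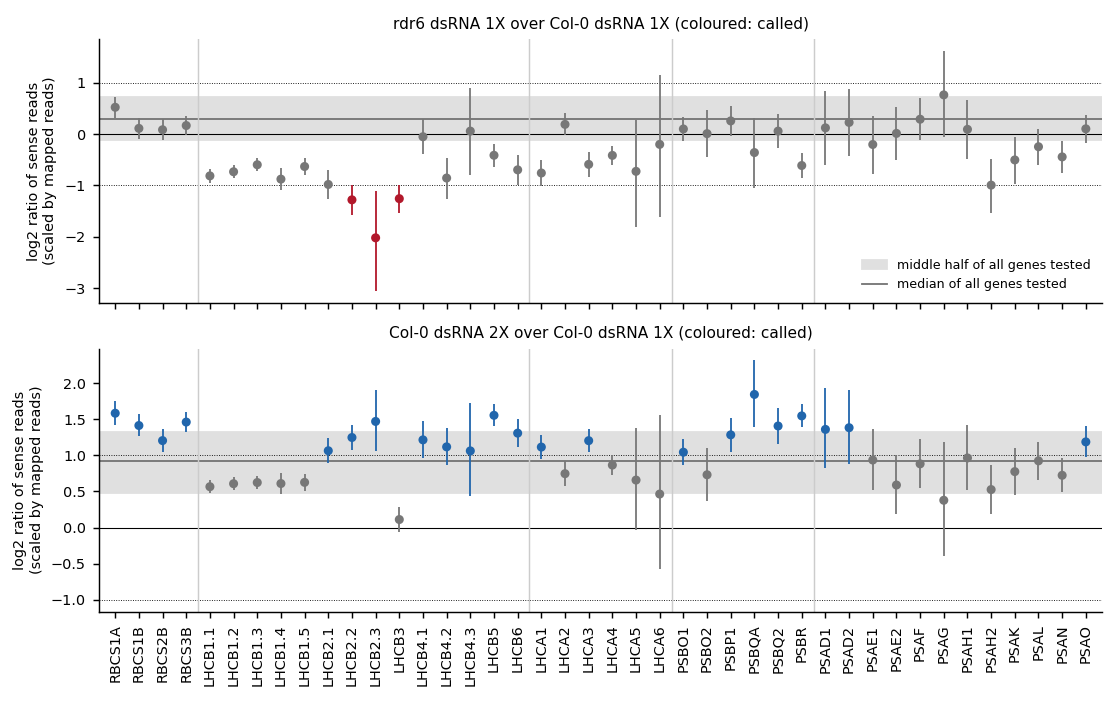
Log2 ratio of sense dsRNA reads, scaled by mapped reads, for the 42 genes in rdr6 1X over Col-0 1X (top) and Col-0 2X over Col-0 1X (bottom), with 95% counting intervals, called genes coloured, a grey line at the median and a grey band over the middle 50% of all genes tested. In the top panel the LHCB genes sit below the grey line and LHCB2.2, LHCB2.3 and LHCB3 are called lower, and in the bottom panel all 42 points lie above 0.

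The second comparison asks what a second round of ribosomal RNA depletion changed. It uses the same Col-0 1X library as the first, so the 2 sets of ratios are not independent. All 42 genes had more sense reads, scaled by mapped reads, in Col-0 2X than in Col-0 1X. Of the 42, 22 were called higher in Col-0 2X, where 26% of the 14662 genes tested were called higher, and none was called lower, where 4.90% were. By the ratio alone the same 22 were higher (44.5% of all genes) and none lower (5.92% of all genes). The median log2 ratio was 1.05, with a range of 0.11 to 1.84, beside 0.92 over all genes tested. Relative to that median of all genes, none was called higher (1.43% of all genes) or lower (8.85% of all genes), so no single gene of the set moved apart from the general shift by a ratio of 2.

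The groups spread around the general shift. All 4 RBCS genes were called higher (median 1.44), as were 5 of 6 photosystem II genes (median 1.35), 8 of 14 LHCB genes (median 1.06), 3 of 12 photosystem I genes (median 0.90) and 2 of 6 LHCA genes (median 0.81). PSBQA had the largest ratio, with 240 reads in Col-0 2X and 50 in Col-0 1X, a log2 ratio of 1.84 (1.4 to 2.31). It was followed by RBCS1A at 1.58 (1.42 to 1.75), LHCB5 at 1.55 (1.4 to 1.71), PSBR at 1.55 (1.39 to 1.71) and LHCB2.3 at 1.47 (1.06 to 1.90). The intervals of these 5 overlap. Some of the 5 depend on shared reads. Of the PSBQA reads, 48.3% in Col-0 2X and 16% in Col-0 1X were also counted at another gene of the set. With reads of 1 location RBCS1A was at 0.76 (0.44 to 1.09) and LHCB2.3 at 0.80 (0.13 to 1.51), and neither was called. LHCB5 stayed at 1.54 (1.39 to 1.70), and PSBQA, LHCB5 and PSBR were still called higher. At the other end the 5 LHCB1 genes ran from 0.57 to 0.63, and LHCB3, with 668 reads in Col-0 2X and 462 in Col-0 1X, was at 0.11 (-0.06 to 0.29). That low place rests on shared reads, since 14.1% of its reads in Col-0 2X and 55.0% in Col-0 1X were also counted at another gene of the set. With reads of 1 location LHCB3 had 564 in Col-0 2X and 208 in Col-0 1X, a log2 ratio of 1.02 (0.79 to 1.26), and was called higher. With each read taken once, the log2 ratio was 1.38 (1.25 to 1.5) for RBCS, 1.12 (0.97 to 1.27) for LHCB2 and 0.66 (0.58 to 0.74) for LHCB1, so the interval of LHCB1 lay below those of both other families. With reads of 1 location, LHCB1 was no longer below LHCB2. LHCB1 then had 1003 reads in Col-0 2X and 492 in Col-0 1X, LHCB2 had 337 and 171, and RBCS had 507 and 176.

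Among the other genes of the pathway, 8 of 14 Calvin cycle genes, 7 of 17 chlorophyll synthesis genes tested and 5 of 13 electron transport genes were called higher in Col-0 2X, and none lower. GUN5, the H subunit of magnesium chelatase, had 2328 reads in Col-0 2X and 697 in Col-0 1X, and CRD1, a cyclase of chlorophyll synthesis, had 468 and 136. Of the floral organ identity genes 1 of 7 was called higher, and of the tapetum genes none of 4. The Col-0 2X file also held reads of 15 and 16 nt, which made up 11.5% of its mapped reads, whereas the other libraries began at 17 nt. The median length of sense reads from the 42 genes was 24 nt in Col-0 2X and 38 nt in Col-0 1X.

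Small RNAs from most photosynthesis genes were few. The 42 genes had 1431 sense and 1399 antisense reads in rdr6 and 1272 and 898 in Col-0, and the median gene had 2.5 sense reads in rdr6 and 5 in Col-0. The genes LHCA2, LHCB1.4, LHCB1.5 and LHCB2.1, stood apart. The other 38 together had 169 sense and 54 antisense reads in rdr6, and 311 and 65 in Col-0.

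Only 12 of the 42 genes had the 20 sense reads needed to compare the small RNA libraries. Of these 12, 1 was called lower in rdr6, where 4.33% of the 3093 genes tested were, and none higher, where 1.52% were. The gene called was RBCS1A, with 7 reads in rdr6 and 29 in Col-0, a log2 ratio of -2.11 (-3.55 to -0.89). RBCS1B and RBCS3B each had 10 reads in rdr6 and 21 in Col-0, and LHCB5 had 9 and 22, so that by the ratio alone 4 genes were lower (6.30% of all genes) and none higher (3.43% of all genes). Relative to the median of all genes tested, RBCS1A was again the 1 gene called lower (4.72% of all genes) and none was higher (1.45% of all genes). The RBCS reads are shared by the copies, and with each taken once the family had 14 reads in rdr6 and 39 in Col-0, a log2 ratio of -1.54 (-2.53 to -0.62). With reads of 1 location only, no RBCS gene had enough reads to be tested.

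The lengths of these small RNAs depended on the gene. In the 38 genes without the 4 named above, 24-nt reads made up 11.2% of 223 reads in rdr6 and 9.04% of 376 in Col-0, and 21-nt reads 21.97% and 29.8%. Over all nuclear protein-coding genes, 24-nt reads made up 58.9% in rdr6 and 51.9% in Col-0, and 21-nt reads 7.95% and 11.6%. The mix of lengths also differed, because 42.2% of the reads of the 38 genes in rdr6 and 45.7% in Col-0 lay outside 20 to 25 nt. Over all genes 20 to 25 nt held 99.0% of sense and 98.4% of antisense reads in rdr6, and 98.1% and 97.4% in Col-0. Over all 42 genes the 24-nt share was 68.2% in rdr6 and 60.7% in Col-0, and without LHCA2 it was 39% and 31.2%. Reads of 21 nt from the 42 genes numbered 125 in rdr6 and 228 in Col-0, a log2 ratio of -0.93 (-1.25 to -0.61), beside -0.64 for 21-nt reads over all genes. Reads of 24 nt had a log2 ratio of 0.49, beside 0.09 over all genes, and most of them came from LHCA2.

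**Figure D4:**
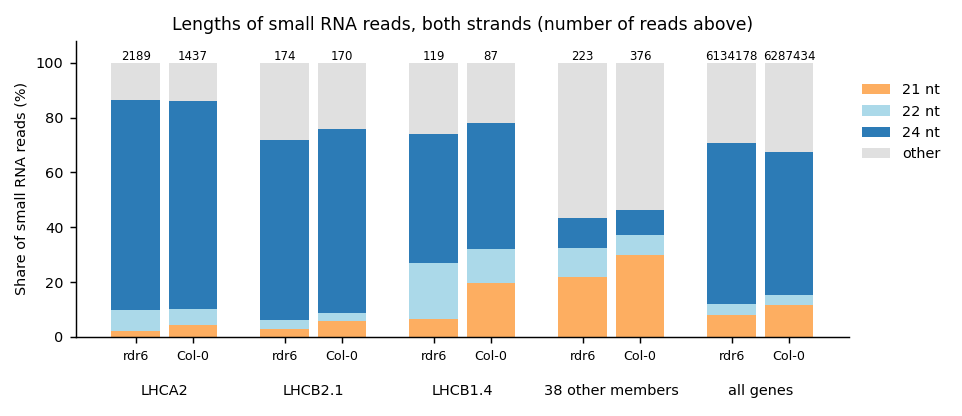
Shares (%) of 21-nt, 22-nt, 24-nt and other small RNA reads of both strands in rdr6 and Col-0 for LHCA2, LHCB2.1, LHCB1.4, the 38 photosynthesis genes other than these and LHCB1.5, and all nuclear protein-coding genes, with the number of reads above each bar. In LHCA2 and LHCB2.1 most reads are 24 nt long, and in the 38 other genes 24-nt reads are 11.2% in rdr6 and 9.04% in Col-0.

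LHCA2 (AT3G61470, chr3:22745514-22747444, plus strand, 4 coding exons) held most of the small RNAs of the set. It had 929 sense and 1260 antisense reads in rdr6 and 674 and 763 in Col-0. The log2 ratio was 0.40 (0.26 to 0.55) for sense and 0.66 (0.53 to 0.80) for antisense reads, both short of a ratio of 2. By length, 24-nt reads of both strands had a log2 ratio of 0.57 (0.46 to 0.68), 22-nt reads 0.89 (0.50 to 1.28) and 21-nt reads -0.44 (-1.01 to 0.11). Of the sense reads 72.9% in rdr6 and 74.0% in Col-0 were 24 nt long, and of the antisense reads 79.5% and 77.2%.

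These reads cannot be placed at LHCA2 alone. An annotated gene on chromosome 5, AT5G28450 (chr5:10372872-10374190, minus strand), matched the LHCA2 coding sequence at 84.2% of 487 aligned bases, and 86.5% of the LHCA2 sense reads in rdr6 and 87.5% in Col-0 were also counted there. Of the antisense reads 46.0% and 44.7% were shared with it. AT5G28450 itself had 1203 sense and 999 antisense small RNA reads in rdr6 and 970 and 714 in Col-0. Reads with a single location numbered 45 sense and 93 antisense for LHCA2 in rdr6 and 33 and 59 in Col-0, so most reads could not be assigned to 1 of these genes.

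The small RNAs lay in distinct stretches of the LHCA2 gene. Bases 1000 to 1400 from the annotated start, mostly in the third coding exon, held 84.4% of sense reads in rdr6 and 85.5% in Col-0. Antisense reads fell in 2 stretches, with 43.4% and 41.4% in bases 1000 to 1400 and 49.4% and 50.3% in bases 1600 to 1800 of the 3′ UTR. A 24-nt sense sequence in coding bases chr3:22746644-22746667 (+), aagcccggtagcgtcaacactgac, had 53 reads in rdr6 and 47 in Col-0 and 2 genome locations. The dsRNA antisense reads of LHCA2 differed in length between libraries, since 24-nt reads were 3.03% of 99 reads in rdr6 1X, 0% of 24 in Col-0 2X and 67.6% of 74 in Col-0 1X. Over all genes 24-nt reads were 1.90%, 3.02% and 11.1% of antisense dsRNA reads, so the share was highest in Col-0 1X there too.

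**Figure D5:**
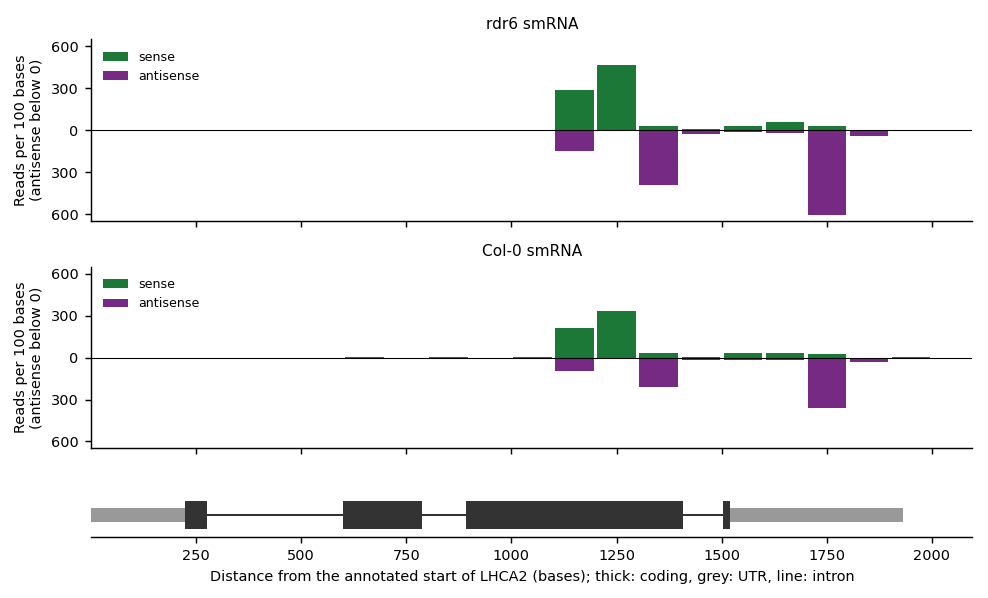
Small RNA reads of LHCA2 in rdr6 (top) and Col-0 (middle) in 100-base bins from the annotated gene start, sense reads up and antisense reads down, with the gene structure below. In both libraries sense reads peak in bases 1101 to 1300, and antisense reads in bases 1301 to 1400 and in bases 1701 to 1800, where rdr6 had 604 and Col-0 364.

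Small RNAs counted at LHCB1.4 and LHCB1.5 mapped mainly to 1 short stretch of coding sequence that is nearly identical in some other antenna genes. LHCA2, LHCB1.1, LHCB1.2 and LHCB1.3 matched it at 23 of 24 bases and LHCB3 at 21. Others did not share it, down to a best match of 14 of 24 bases in LHCB4.2 and LHCB6. LHCB1.4 had 113 sense reads in rdr6 and 79 in Col-0, and LHCB1.5 had 117 and 89. The stretch is shown because small RNAs of several antenna genes map to it and cannot be placed at 1 copy. Capitals mark bases that differ from LHCB1.4, and positions count from 1 at the 5′ end.
LHCB1.4, chr2:14525454-14525477 (+): aaggagctcaagaacggaaggttg
LHCB1.5, chr2:14522857-14522880 (-): aaggagctcaagaacggaaggttg
LHCA2, chr3:22746785-22746808 (+): aaggagAtcaagaacggaaggttg
AT5G28450, chr5:10373194-10373217 (-): aaggagAtcaagaacggaaggttg
LHCB1.3, chr1:10478710-10478733 (+): aaggagctcaagaacggaagAttg
LHCB3, chr5:22039219-22039242 (+): aaAgagAtcaagaacggaagAttg

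Sense small RNA reads with their middle base in this stretch numbered 286 in rdr6 and 186 in Col-0 for LHCA2 (C7A) and 309 and 196 for AT5G28450 (C7A). LHCB1.4 and LHCB1.5 each had 106 and 61. The counts are not separate, since the most read LHCB1.4 sequences had 4 or 5 genome locations, none of the LHCB1.4 sense small RNAs had a single location, and 102 LHCA2 sense reads in rdr6 and 57 in Col-0 were also counted at another gene of the set. LHCB1.3 (G21A) had 5 and 7, and LHCB3 (G3A, C7A and G21A) had 8 and 4. LHCA2 is 1 base from LHCB1.4 here and 2 bases from LHCB1.3, and the mismatch limit of the alignment sets at which copies a read was counted. Sense dsRNA reads at the site numbered 63 in rdr6 1X, 851 in Col-0 2X and 217 in Col-0 1X for LHCB1.3, 59, 642 and 184 for LHCB1.4 and 33, 76 and 57 for LHCA2. The LHCB1.3 site overlaps the window of highest dsRNA depth printed above. Antisense small RNA reads at the LHCB1.4 site numbered 1 in each library.

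LHCB2.1 was the other gene with many small RNAs. It had 103 sense and 71 antisense reads in rdr6 and 119 and 51 in Col-0. In the 3′ UTR, 1 24-nt sequence with a single genome location had 41 reads in rdr6 and 48 in Col-0, so for this gene part of the signal can be placed at LHCB2.1 alone. Its paralog LHCB2.2 had 5 sense reads in rdr6 and 8 in Col-0.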

How the data were processed

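Reads of dsRNA and small RNA libraries were made by the authors on an Illumina platform, trimmed of adapter, collapsed to non-redundant sequences and aligned with cross_match, keeping all locations with up to 6% mismatches. The deposited files give each sequence's locations and its read count. They hold no read letters, so printed bases are those of the reference (RefSeq, TAIR10.1). Of 20159 sequences with 2 nuclear locations, 99.7% had reference bases within 12% of each other, and 0% when 1 location was shifted by 1 base.

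A read was assigned to a gene by its middle base, at every location and by strand. Sense reads were compared by the exact one-sided Audic-Claverie test, scaled by mapped reads, over all nuclear protein-coding genes with at least 20 reads, and called at a ratio of at least 2 and p under 0.001. Intervals are 95% exact binomial. On simulated data with 200 genes changed 4-fold, 177 were recovered for rdr6 1X against Col-0 1X (10701 genes). The simulated counts held counting error only. This recovery therefore does not cover variation between libraries, shared reads or changes near a ratio of 2. Folds were predicted with RNAfold 2.7.2, statistics computed with SciPy 1.17.1 and pandas 2.3.3 under Python 3.11.15, sequences aligned with Biopython 1.88 and figures drawn with matplotlib 3.10.9. The members and lists were chosen with earlier results of these data known. Values in all libraries are given for the 12 genes with the most dsRNA reads, the highest and lowest of each group, called genes (up to 5 per direction) and genes with at least 10 antisense dsRNA reads in a library, and of each other pathway list the 2 genes with the most reads could be named.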

Additional observations from a re-analysis of the deposited data

How the results depend on the processing

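Each library is a single sample, so no replicate could be left out. No paired analysis was possible because each condition had 1 library and no replicate numbers. For rdr6 1X against Col-0 1X, the 3 genes called lower became 7 with non-redundant sequences, 7 when scaled by sense reads in genes, 1 at a fold of 4 and 10 relative to the median of all genes (an alternative chosen after seeing the data), and reads of 1 location gave 1 gene called higher. For Col-0 2X against Col-0 1X, the 22 called higher became 7, 6, 0 and 0 under the same 4 settings. With reads of 1 location they became 18 of 40 genes tested, 14 of them among the 22. The single small RNA call became 0 with reads of 1 location, where fewer genes could be tested. Of the settings above, only the median of all genes has a share of all genes beside it. That share was 3.61% called lower in rdr6 1X and 1.43% called higher in Col-0 2X. The other counts are not set against a general rate, so they show only how the calls depend on the setting. The sense share was 98.5% in rdr6 1X, 99.8% in Col-0 2X and 99.3% in Col-0 1X with reads of 1 location, 97.5% in rdr6 1X with reads divided by their locations, and 98.0%, 99.7% and 99.4% without LHCA2 (chosen after seeing the data). The coding share was 77.4%, 84.4% and 77.8% with reads of 1 location and 83%, 88.1% and 83.6% with divided reads, 90.3% in Col-0 2X and 88.5% in Col-0 1X with non-redundant sequences, and 91.3% in Col-0 2X by the leftmost base. The 24-nt share was 56.4% in rdr6 and 40.8% in Col-0 with reads of 1 location, 43.2% and 36.4% with non-redundant sequences, 70.7% and 66.4% over 19 to 26 nt, 39% and 31.2% without LHCA2, and 11.2% and 9.04% without LHCA2, LHCB1.4, LHCB1.5 and LHCB2.1 (the last 2 chosen after seeing the data). With reads of 1 location, the median log2 ratios of photosystem II and photosystem I genes in rdr6 1X over Col-0 1X were -0.06 and -0.12, of opposite sign to 0.03 and 0.05 with all reads, and LHCB3 in Col-0 2X over Col-0 1X was at 1.02 in place of 0.11. The cause of these changes was not tested.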

Other observations

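NPQ4 (AT1G44575), which encodes the photosystem II protein PsbS of energy dissipation, was the exception among 13 genes of electron transport and ATP synthase. It had 13613 antisense dsRNA reads in rdr6 1X, 644 in Col-0 2X and 2568 in Col-0 1X, beside 320, 460 and 296 sense reads. The whole list had 13628, 656 and 2576 antisense reads, so nearly all lay in this gene. Its small RNA reads numbered 2094 sense and 2676 antisense in rdr6 and 1794 and 2955 in Col-0. DRT112, a plastocyanin gene and the other gene named from this list, had 263 sense reads in rdr6 1X, 903 in Col-0 2X and 422 in Col-0 1X, with 2 antisense reads in rdr6 1X and 0 in both Col-0 libraries.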
